A study of Mus musculus with 2 samples.

Results

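Axon guidance genes encode the secreted or membrane-bound cues that steer growing axons and the cell-surface receptors that read them. The members were taken by gene symbol, as the semaphorins Sema3 to Sema7, the plexins, the Eph receptors, the ephrins, Slit1 to Slit3, Robo1 to Robo4, the netrins (Ntn1, Ntn3, Ntn4 and Ntn5), the Unc5 receptors and Dcc. The rule found 67 genes, 35 of them ligands and 32 receptors, among 55536 annotated genes, of which 22028 were protein-coding. The rule used symbols alone and no measured value.

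Total RNA-seq was made from adrenal gland tissue of females of the strain B6CASTF1/J, 4 days of age, as 2 libraries. B6CASTF1/J animals are hybrids of the C57BL/6J and CAST/EiJ strains, and the reads were placed on the mm10 assembly, which comes from C57BL/6J; what this does to the counts of the members was not tested. Both libraries were made from 300 ng of RNA that was depleted of ribosomal RNA, and both carried ERCC spike-in RNA. There was no second group, so the libraries, labelled as 2 biological replicates, stand for 1 condition and no comparison between conditions could be made. Which animal gave replicate 2 is not settled, because the labels of its library and of its tissue name different animals and the first is the animal of replicate 1. If both came from 1 animal, the spread between them would not be one between animals. Below, the 2 libraries are called 2 animals, after their replicate labels.

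Semaphorins bind plexins, and most secreted class 3 semaphorins do so through a neuropilin co-receptor. Ephrins and Eph receptors both sit in the membrane and signal where cells touch, in both directions. Slits bind Robo receptors, and netrin-1 attracts axons through Dcc and repels them through Unc5 receptors. The adrenal medulla arises from neural crest cells and is innervated by preganglionic sympathetic axons, and the gland is densely vascularised. Several of these cues and receptors act on endothelium and on other cells outside the nervous system as well.

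The libraries held 31838341 expected counts in replicate 1 and 32931868 in replicate 2, and the members took 0.315% of them in replicate 1 and 0.297% in replicate 2. All 7 markers of the adrenal cortex and all 6 of chromaffin cells were detected in both animals, summing to 6068 and 1836 TPM, a level normalised for transcript length and depth, in replicate 1 and to 6684 and 2150 TPM in replicate 2. The endothelial markers summed to 331 TPM in replicate 1 and 315 in replicate 2, and the neuronal markers to 120 TPM in replicate 1 and 115 in replicate 2. The libraries differed in the markers of other organs. Pancreas markers summed to 3611 TPM in replicate 1 and 0.49 in replicate 2, and kidney markers to 103 TPM in replicate 1 and 10.6 in replicate 2. Skeletal muscle markers summed to 211 TPM in replicate 1 and 1368 in replicate 2, and liver markers to 83.5 TPM in replicate 1 and 342 in replicate 2.

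Levels are those of the first of 2 quantifications that the authors deposited for the same libraries; the second was made from the read files. Of the 67 members, 57 reached 1 TPM in both animals, against 59.3% of protein-coding genes and 26.4% of all annotated genes. They comprised 32 of the 35 ligands and 25 of the 32 receptors. The genes above that level were of moderate abundance, with a median of 6.05 TPM, against 12.4 TPM over all protein-coding genes that reached it. Of the 67 members, 19 reached 10 TPM in both animals. No member was at 0 counts in either library. Neither of these counts was taken over all genes. In bulk tissue, fewer cells of a type and less RNA per cell cannot be told apart, and the glands were not separated into cortex and medulla.

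**Figure D1:**
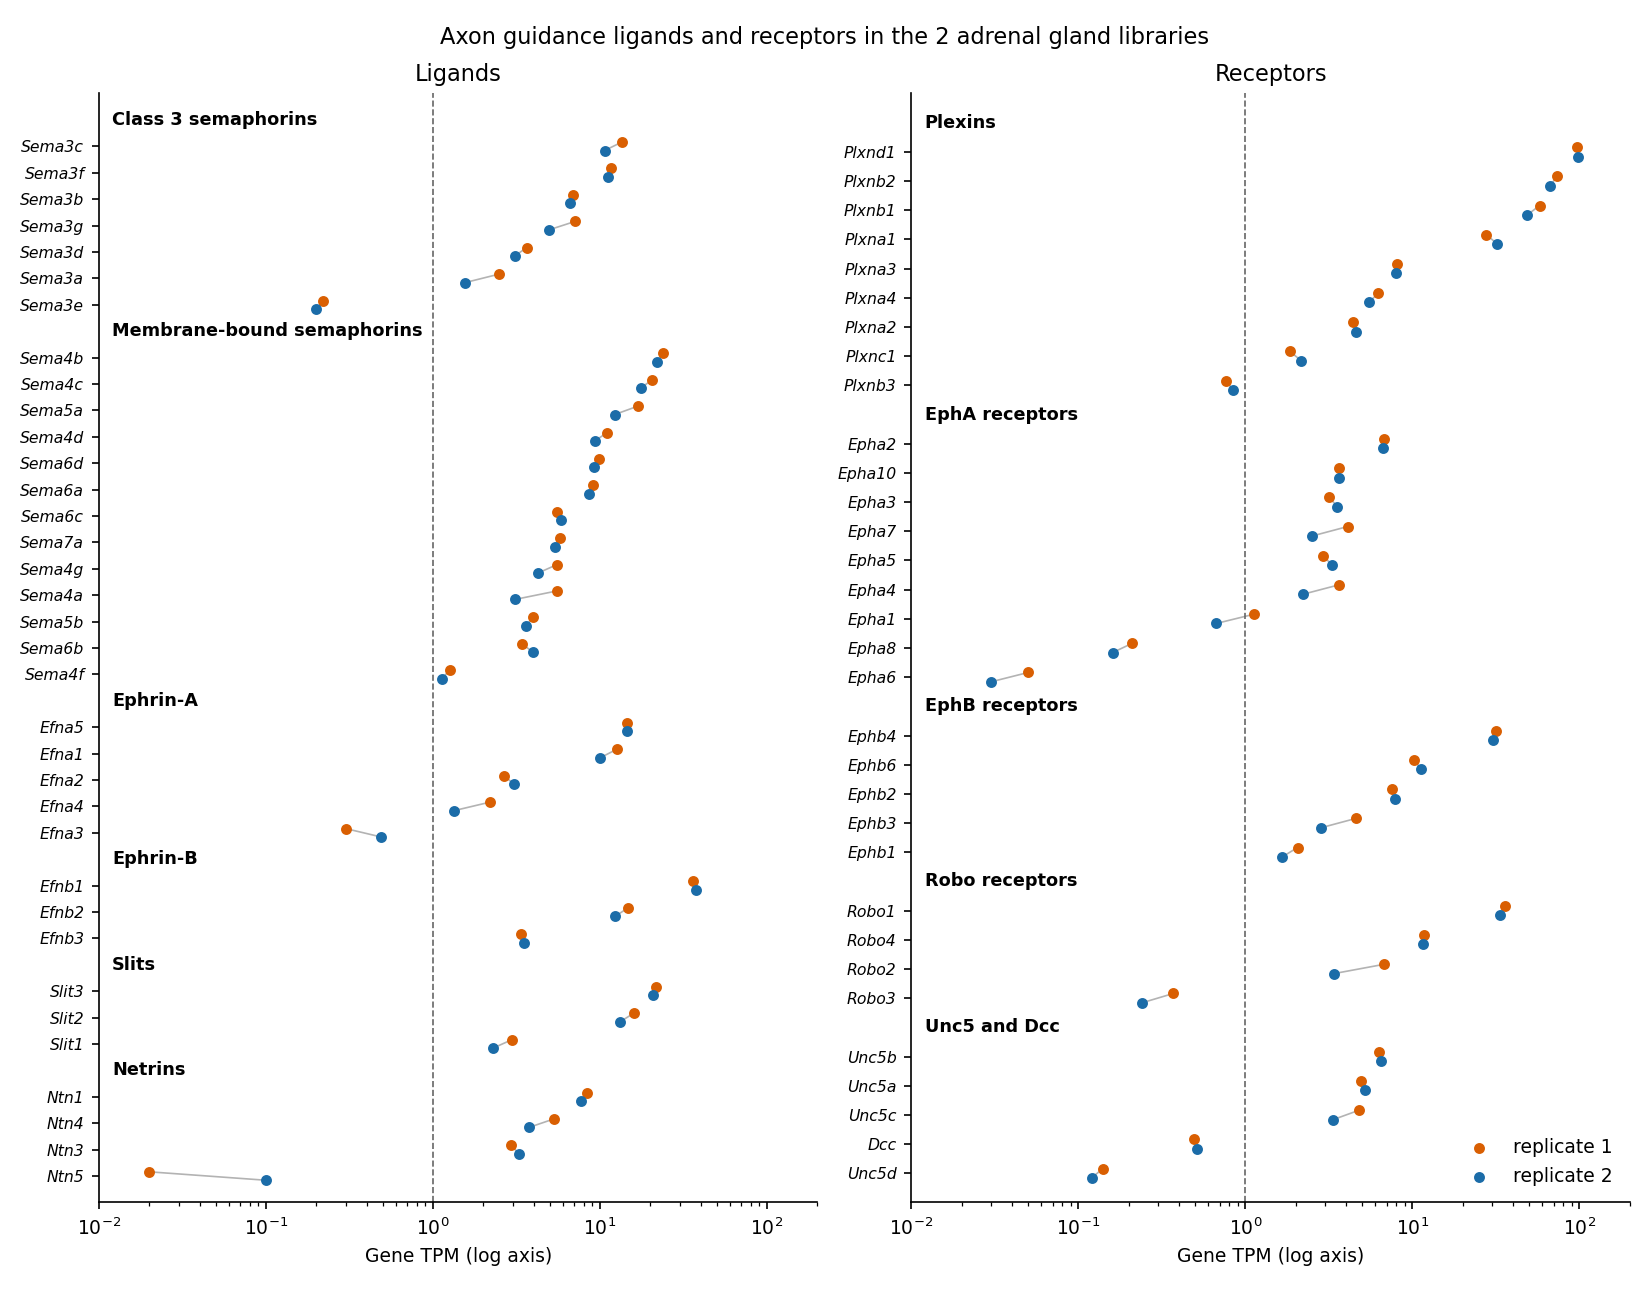
Gene TPM of each member in replicate 1 (orange, upper point) and replicate 2 (blue, lower point) on a log axis, with ligands in the left panel, receptors in the right panel and a dashed line at 1 TPM. Plxnd1 stands highest, at 96.8 TPM in replicate 1 and 98.2 in replicate 2, and most pairs of points lie close together against a spread between genes that runs down to 0.02 TPM.

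Among the ligands, the membrane-bound semaphorins of classes 4 to 7 had the highest summed level, 114 ± 11.5 TPM (SD, n = 2), and all 13 were detected. Sema4b led them with 23.9 TPM in replicate 1 and 21.9 in replicate 2, although the second quantification put Sema4c above it in both animals. Sema4c, a ligand of plexin-B2, had 20.6 TPM in replicate 1 and 17.5 in replicate 2. Both class 4 genes were thus above every class 5, 6 and 7 gene in both animals. Sema5a, whose protein carries thrombospondin repeats, had 16.9 TPM in replicate 1 and 12.2 in replicate 2. Sema4d, a ligand of plexin-B1, had 11.02 TPM in replicate 1 and 9.33 in replicate 2. The family reached down to Sema4f, which had 1.26 TPM in replicate 1 and 1.13 in replicate 2 and was one of the members nearest above the detection level.

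The secreted class 3 semaphorins summed to 41.9 ± 5.25 TPM, with 6 of 7 detected. Sema3c was the highest with 13.5 TPM in replicate 1 and 10.7 in replicate 2. Sema3f, which acts through neuropilin-2, had 11.7 TPM in replicate 1 and 11.2 in replicate 2, so that these genes did not keep the same order in both animals. Sema3g had 7.13 TPM in replicate 1 and 4.97 in replicate 2, and Sema3b had 6.92 TPM in replicate 1 and 6.57 in replicate 2. Sema3a, the classical repellent that binds neuropilin-1, was lower, with 2.49 TPM in replicate 1 and 1.56 in replicate 2. Sema3e, which binds plexin-D1 without a neuropilin, was the 1 family member that was not detected, with 0.22 TPM in replicate 1 and 0.20 in replicate 2.

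The ephrins divide by their anchor, a lipid for ephrin-A proteins and a transmembrane segment for ephrin-B proteins. The 3 ephrin-B genes summed to 53.7 ± 0.587 TPM and the 5 ephrin-A genes to 30.8 ± 1.98 TPM. Efnb1, on the X chromosome, was the highest ligand of all, with 35.98 TPM in replicate 1 and 37.4 in replicate 2, and made up 66.5% of its family's sum in replicate 1 and 70.3% in replicate 2. Efnb2, which marks arterial endothelium, had 14.8 TPM in replicate 1 and 12.3 in replicate 2. Efnb3 was far below both, with 3.37 TPM in replicate 1 and 3.50 in replicate 2. Efna5 had 14.5 TPM in each animal and Efna1 had 12.6 TPM in replicate 1 and 10.02 in replicate 2, and the remaining ephrin-A genes were lower. Efna2 had 2.67 TPM in replicate 1 and 3.05 in replicate 2. Efna4, the other member nearest above the detection level, had 2.19 TPM in replicate 1 and 1.34 in replicate 2. Efna3 lies between Efna1 and Efna4 on chromosome 3, with 32.8 kb to the first and 10.4 kb to the second, and was not detected, with 0.30 TPM in replicate 1 and 0.49 in replicate 2.

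Slit genes encode large secreted proteins, and all 3 were detected, with a sum of 38.3 ± 2.85 TPM. Slit3 had 21.5 TPM in replicate 1 and 20.9 in replicate 2. Slit2 had 15.9 TPM in replicate 1 and 13.2 in replicate 2. Slit1, best known from the nervous system, was several-fold lower than both, with 2.96 TPM in replicate 1 and 2.28 in replicate 2. The netrins had the lowest sum of all 11 families, 15.7 ± 1.22 TPM. It did not differ beyond the spread between animals from the sum of the netrin receptors among the members, Unc5 and Dcc, at 16.1 ± 0.665 TPM. That order is not firm, since Unc5 and Dcc were the lowest with protein-coding transcripts alone, at 14.4 TPM against 14.9 for netrins, and in the second quantification, at 28.3 ± 1.34 TPM against 35.7 ± 2.91. Ntn1 had 8.34 TPM in replicate 1 and 7.72 in replicate 2. Ntn4, a netrin of basement membranes, had 5.28 TPM in replicate 1 and 3.75 in replicate 2. Ntn3 had 2.94 TPM in replicate 1 and 3.28 in replicate 2, from 375 counts in replicate 1 and 419 in replicate 2, and shares exonic sequence on the same strand with Tbc1d24, which had 809 counts in replicate 1 and 970 in replicate 2. Both genes' counts were whole, and how their shared reads were divided was not tested. Ntn5 had 1 count in replicate 1 and 5 counts in replicate 2.

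Plexins were the largest group among the receptors and among all families, at 272 ± 7.61 TPM, which was 37.4% of the members' summed TPM in replicate 1 and 38.9% in replicate 2. Plxnd1 (ENSMUSG00000030123.15, chr6:115954811-115995005, minus strand, mm10), the receptor of Sema3e in developing vessels, was the highest member, with 96.8 TPM in replicate 1 and 98.2 in replicate 2, and ranked 589th among protein-coding genes by mean TPM. Plxnb2 had 73.9 TPM in replicate 1 and 66.3 in replicate 2. Plxnb1 had 57.7 TPM in replicate 1 and 48.8 in replicate 2. These receptors, 1 of class D and both others of class B, took the first 3 places among all members in each animal. In the second quantification Efnb1 stood above Plxnb2 and took the third place. Plxna1, which pairs with neuropilins, had 27.7 TPM in replicate 1 and 32.3 in replicate 2. The other class A plexins, Plxna2 to Plxna4, lay between 4.39 and 8.12 TPM, and Plxnc1, the plexin that binds Sema7a, had 1.85 TPM in replicate 1 and 2.16 in replicate 2. Plxnb3 was just below the detection level in both animals, with 0.77 TPM in replicate 1 and 0.84 in replicate 2.

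EphB receptors summed to 54.96 ± 1.32 TPM with all 5 detected, and EphA receptors to 24.2 ± 2.02 TPM with 6 of 9 detected. Ephb4, the venous partner of ephrin-B2, made up 56.3% of the EphB sum in replicate 1 and 56.2% in replicate 2, with 31.5 TPM in replicate 1 and 30.4 in replicate 2. Ephb6, which lacks kinase activity, had 10.2 TPM in replicate 1 and 11.3 in replicate 2, and Ephb2 had 7.57 TPM in replicate 1 and 7.85 in replicate 2. Ephb3 had 4.59 TPM in replicate 1 and 2.84 in replicate 2. No EphA gene stood out in the same way. Epha2, a receptor of ephrin-A1, was the highest with 6.80 TPM in replicate 1 and 6.67 in replicate 2, and Epha10, Epha3, Epha7, Epha5 and Epha4 followed between 2.21 and 4.09 TPM. Epha1 was the only member on different sides of the detection level, with 1.13 TPM in replicate 1 and 0.67 in replicate 2, and its exons overlap those of the more abundant Zyx on the opposite strand; how the reads of the pair were divided was not tested. Epha8 and Epha6 were at 0.21 TPM or less in both animals.

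Robo receptors summed to 51.7 ± 4.46 TPM, and the EphB and ephrin-B sums lay within that spread of it. This did not hold for protein-coding transcripts alone, which gave the Robo receptors 40.6 TPM against 53.5 for EphB and 51.2 for ephrin-B. Robo1 (ENSMUSG00000022883.11, chr16:72308306-73046095, plus strand) had 35.9 TPM in replicate 1 and 33.3 in replicate 2. Robo4, a Robo receptor of endothelial cells, had 11.8 TPM in replicate 1 and 11.6 in replicate 2. Robo2 had 6.76 TPM in replicate 1 and 3.38 in replicate 2, the largest ratio between the animals among members with a mean count of at least 100. Robo3, which acts in commissural axons, had 0.37 TPM in replicate 1 and 0.24 in replicate 2, although its gene ends only 0.554 kb from that of Robo4, on the opposite strand. Among the netrin receptors, Unc5b, which is also known from endothelium, had 6.27 TPM in replicate 1 and 6.44 in replicate 2. Unc5a had 4.91 TPM in replicate 1 and 5.23 in replicate 2, and Unc5c had 4.79 TPM in replicate 1 and 3.36 in replicate 2. Dcc had 0.49 TPM in replicate 1 and 0.51 in replicate 2, from 124 counts in each library, and Unc5d had 0.14 TPM in replicate 1 and 0.12 in replicate 2.

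**Figure D2:**
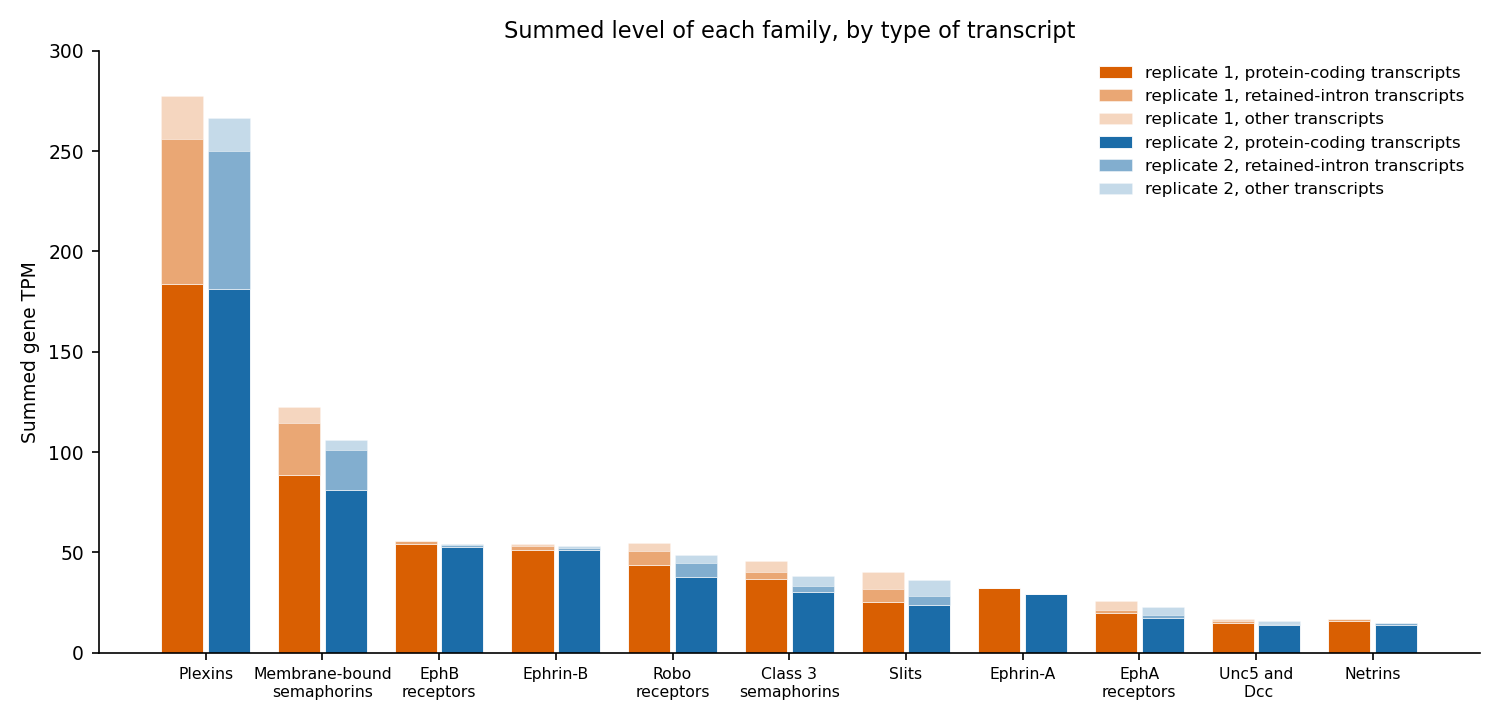
Summed gene TPM of each family in replicate 1 (orange, left bar) and replicate 2 (blue, right bar), each bar divided into protein-coding, retained-intron and other transcripts from dark to light. Plexins reach 277 TPM in replicate 1 and 267 in replicate 2, the next family is the membrane-bound semaphorins, and the pale parts are largest in those families.

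The levels of 17 pairs of a ligand and a receptor through which it is reported to act were set side by side within each library, as the log2 ratio of the ligand's TPM over the receptor's with 0.01 TPM added to each. The ligand was higher in both animals in 9 pairs and the receptor in 8, and in no pair did the order differ between the animals. Efnb2 over Ephb4 gave -1.19 ± 0.15 and Slit2 over Robo1 gave -1.26 ± 0.11, with the receptor above the ligand in both pairs. In the second quantification these values were -0.89 and -1.52, so that the gap of Efnb2 and Ephb4 was under 2-fold there. By gene TPM, Slit2 was above Robo2, at 1.59 ± 0.51, and above Robo4, to which its direct binding is disputed, at 0.31 ± 0.17. With protein-coding transcripts alone, Slit2 was below Robo4 in both animals, at -0.55 ± 0.03, and against Robo2 it gave -0.06 in replicate 1 and 0.79 in replicate 2. The receptor was also higher for Slit3 over Robo1 at -0.71 ± 0.05, Sema3a over Nrp1 at -4.39 ± 0.50 and Sema3f over Nrp2 at -0.73 ± 0.11. The widest gap, also on the side of the receptor, was that of Sema3e over Plxnd1, at -8.79 ± 0.11. Sema3c, another ligand that acts through plexin-D1, was also well below it, at -3.02 ± 0.26. In the netrin pairs listed, the ligand was higher, with Ntn1 over Dcc at 3.98 ± 0.12 and Ntn1 over Unc5b at 0.34 ± 0.11. Neo1, which also binds netrins, was not among the pairs. It had 33.2 TPM in replicate 1 and 33.4 in replicate 2, above Ntn1 in both. Sema7a over Plxnc1 gave 1.47 ± 0.23, and Sema4d over Plxnb1 gave -2.39 in replicate 1 and -2.38 in replicate 2. Efnb1 over Ephb2 gave 2.25 in both animals, and Sema6a over Plxna2 gave 0.97 ± 0.10. In the ephrin-A pairs the ligand was higher too, with Efna5 over Epha4 at 2.36 ± 0.50 and Efna1 over Epha2 at 0.74 ± 0.21. With protein-coding transcripts alone, Efna5 over Epha4 widened to 4.09 ± 0.79. The value of Efna1 over Epha2 was 0.18 in the second quantification, in which 11 of the 17 pairs moved beyond the spread between animals and none changed its order.

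**Figure D3:**
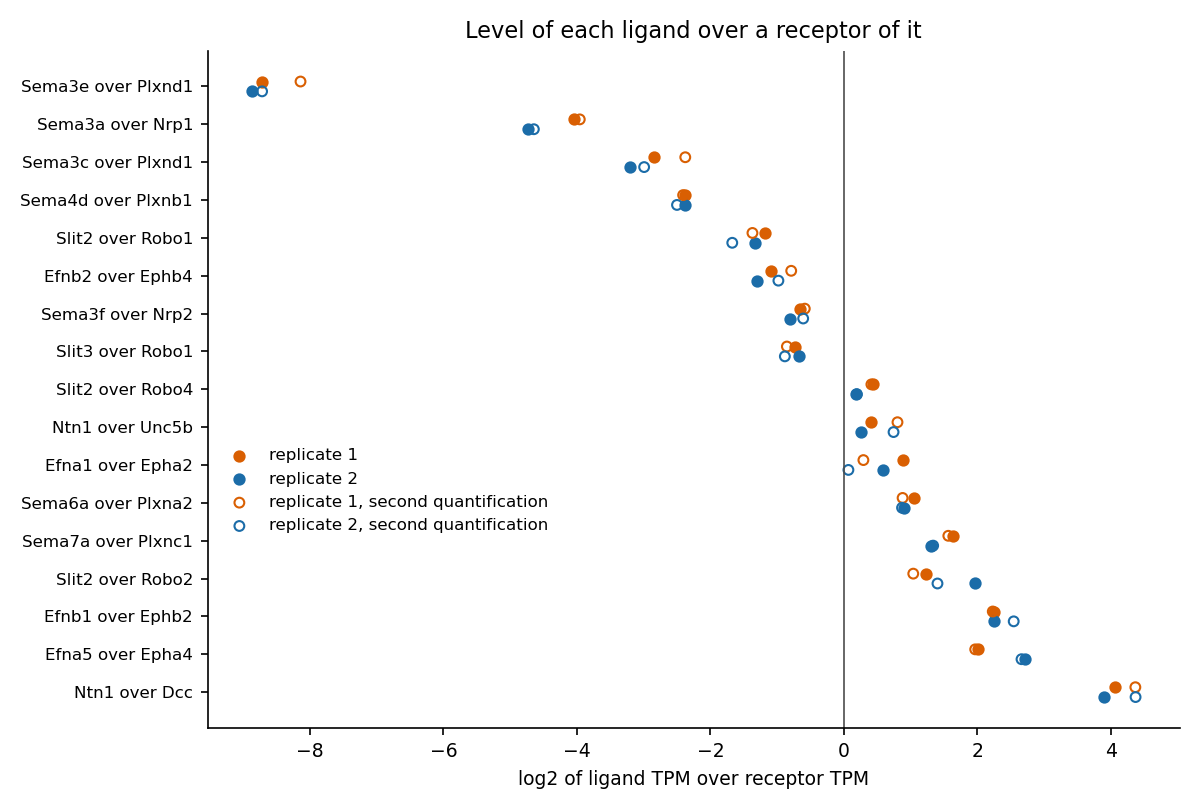
The log2 ratio of ligand TPM over receptor TPM for 17 pairs in replicate 1 (orange, upper) and replicate 2 (blue, lower), with filled points for the first quantification and open points for the second. Points left of 0 are pairs in which the receptor is higher, and the pair at the far left is Sema3e over Plxnd1.

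The same receptors need co-receptors and cytoplasmic partners, and a list of 70 such genes was looked up. Of these, 62 were detected. The highest were general cytoskeletal regulators, with Cfl1, the actin-severing cofilin, at 307 TPM in replicate 1 and 291 in replicate 2. The small GTPases that act on the growth cone followed, with Cdc42 at 147 TPM in replicate 1 and 148 in replicate 2 and Rac1 at 139 TPM in replicate 1 and 141 in replicate 2. Rhoa, a GTPase of repulsive responses, had 129 TPM in replicate 1 and 127 in replicate 2. Rtn4, the source of the Nogo inhibitor of axon growth, had 105 TPM in replicate 1 and 117 in replicate 2. Ptprs, Dag1 and Dpysl2, the last of which encodes a mediator of semaphorin signalling, lay between 55.8 and 74.1 TPM. The neuropilins that class 3 semaphorins need were both well detected, with Nrp1 at 41.1 TPM in replicate 1 and 41.9 in replicate 2 and Nrp2 at 18.4 TPM in replicate 1 and 19.5 in replicate 2. Neo1, the Dcc relative that also binds netrins, had 33.2 TPM in replicate 1 and 33.4 in replicate 2, and was thus far above Dcc itself.

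In total RNA, a gene's TPM sums protein-coding transcripts and short non-coding ones, which weigh heavily because TPM divides by length. Protein-coding transcripts held a median of 86.9% of the TPM of the detected members in replicate 1 and 83.4% in replicate 2, beside 87.4% in replicate 1 and 89.3% in replicate 2 over all detected protein-coding genes. In Plxnd1, the protein-coding transcript Plxnd1-201 of 6907 bases took 96.6% of the gene's counts in replicate 1 and 96.5% in replicate 2, but 61.4% of its TPM in replicate 1 and 60.4% in replicate 2. The rest of its TPM fell to retained-intron transcripts, chiefly Plxnd1-204 of 442 bases with 24.2% in replicate 1 and 26.8% in replicate 2. Plxnb2 was divided likewise, and its non-coding transcript Plxnb2-205 of 834 bases took 27.6% of the TPM in replicate 1 and 23.6% in replicate 2, but 0.0% in each animal in the second quantification. With protein-coding transcripts alone, Plxnd1 had 59.7 TPM in replicate 1 and 60.2 in replicate 2 and still ranked first, and 9 of the 10 highest members stayed among the first 10. Slit2 changed place most among the 20 highest, since its protein-coding transcripts held only 38.4% of its TPM in replicate 1 and 40.4% in replicate 2, and it ranked 26th by them in place of 12th.

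At 5 TPM or more in both animals there were 31 members, and in 11 of them the leading transcript held under 60% of the gene's TPM in both. The same share was not taken over all genes, so whether this sets the members apart is not known. These were Plxnb2, Sema4c, Slit2, Robo4, Sema3f, Sema4d, Sema6d, Sema6a, Plxna3, Sema3b and Sema6c. In the first quantification the leading transcript was protein-coding in all 31 and the same in both animals in 27, the others being Sema4c, Sema3b, Sema6d and Robo4. It was the same in both animals and both quantifications in 23. In the second quantification the leader in both animals was the retained-intron Sema4c-206 in Sema4c. In Slit2 it was Slit2-201, annotated as a target of nonsense-mediated decay. In Robo4, Robo4-202 held 38.8% in replicate 1 and 23.1% in replicate 2, where Robo4-205 held the same 23.1%, and the second quantification gave 46.3% in replicate 1 and 44.1% in replicate 2 to Robo4-204, a transcript annotated as a target of nonsense-mediated decay. Sema6d had a different leader in each animal. Sema6d-206 held 39.0% in replicate 1 and 24.2% in replicate 2, and Sema6d-202 held 7.1% in replicate 1 and 30.6% in replicate 2. Epha7 also has transcripts with a shorter coding sequence, of 1878 and 1830 bases in place of 2994, and these held 22.5% and 16.4% of its TPM in replicate 1 and 18.6% and 15.0% in replicate 2. In Epha4, a transcript annotated as a target of nonsense-mediated decay, Epha4-205, held 51.7% in replicate 1 and 54.5% in replicate 2, and the second quantification gave it 1.3% in replicate 1 and 44.5% in replicate 2.

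Some of these transcripts differ by coding exons that can be left out without a shift of the reading frame. Among the 54 members at 2 TPM or more, 30 such exons were annotated in 17 members. In 11 exons of 7 members the share of the spanning protein-coding transcripts' TPM that included the exon lay between 10% and 90% in both animals and in both quantifications. Other genes were not searched for such exons. The exons of Efna5, Robo2, Slit2, Sema3f, Sema6d and Unc5c are shown because they are the coding sequence that some of a gene's transcripts carried and others lacked. Each is written 5′ to 3′ on the gene's strand from the GENCODE M21 transcripts, with the exon in capitals between 12 bases of the neighbouring exons in lower case. Only the exon of Sema3f starts at a codon boundary, and the capitals of the others begin within a codon.
Robo2 exon 7 of Robo2-211, 12 bases, chr16:74008775-74008786, minus strand: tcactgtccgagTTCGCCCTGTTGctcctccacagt
Slit2 exon 9 of Slit2-216, 12 bases, chr5:48191003-48191014, plus strand: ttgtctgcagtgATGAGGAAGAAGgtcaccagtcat
Slit2 exon 16 of Slit2-202, 24 bases, chr5:48220967-48220990, plus strand: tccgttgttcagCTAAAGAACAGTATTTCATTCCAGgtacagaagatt
Unc5c exon 8 of Unc5c-201, 57 bases, chr3:141786857-141786913, plus strand: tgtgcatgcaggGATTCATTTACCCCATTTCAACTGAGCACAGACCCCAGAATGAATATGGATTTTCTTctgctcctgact
Sema6d exon 17 of Sema6d-206, 57 bases, chr2:124660705-124660761, plus strand: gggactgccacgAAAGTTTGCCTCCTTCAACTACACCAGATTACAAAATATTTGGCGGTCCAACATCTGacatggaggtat
Efna5 exon 4 of Efna5-201, 81 bases, chr17:62613316-62613396, minus strand: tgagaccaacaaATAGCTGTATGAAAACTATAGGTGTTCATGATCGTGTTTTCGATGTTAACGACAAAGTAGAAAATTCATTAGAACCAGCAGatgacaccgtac
Sema3f exon 5 of Sema3f-204, 93 bases, chr9:107691356-107691448, minus strand: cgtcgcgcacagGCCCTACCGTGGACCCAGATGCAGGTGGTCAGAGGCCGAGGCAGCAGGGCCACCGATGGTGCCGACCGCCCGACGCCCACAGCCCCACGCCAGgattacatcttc

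The 12-base exon of Robo2 adds the length of 4 codons. It was in 67.1% of the spanning TPM in replicate 1 and 65.9% in replicate 2, although Robo2 itself differed between the animals. Spanning transcripts held 3.68 of the gene's 6.76 TPM in replicate 1 and 2.05 of 3.38 in replicate 2. The 12-base exon of Slit2 was in 73.1% in replicate 1 and 78.4% in replicate 2. There the spanning transcripts held 6.1 of the gene's 15.9 TPM in replicate 1 and 5.33 of 13.2 in replicate 2. The 24-base exon of the same gene was in the minority, with 24.1% in replicate 1 and 16.5% in replicate 2, and the second quantification gave a higher 40.4% in replicate 1 and 39.5% in replicate 2. The 57-base exon of Unc5c was in 33.8% in replicate 1 and 27.9% in replicate 2. In Sema3f, 39.2% in replicate 1 and 34.2% in replicate 2 included the 93-base exon. Efna5 had its 81-base exon in 66.8% in replicate 1 and 66.1% in replicate 2, but the transcript without it, Efna5-202, is annotated with only 643 bases and took 6.4% of the gene's counts in replicate 1 and 6.6% in replicate 2.

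The 57-base exon of Sema6d had the widest gap in inclusion between the animals among the 11 exons, at 65.3% in replicate 1 and 38.5% in replicate 2. The second quantification gave 56.3% in replicate 1 and 34.2% in replicate 2. The gene's own level was alike, with 1606 counts in replicate 1 and 1600 in replicate 2, a log2 ratio of 0.01 with a 95% counting interval of -0.09 to 0.11. The next exon of the gene, which starts at the same place in 2 forms of 156 and 168 bases, was in 62.8% in replicate 1 and 46.1% in replicate 2 in its longer form, and the second quantification gave a narrower 42.0% in replicate 1 and 36.7% in replicate 2. With 1 library per replicate the difference has no further check, and transcript shares also carry the error of assigning reads to transcripts that overlap.

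**Figure D4:**
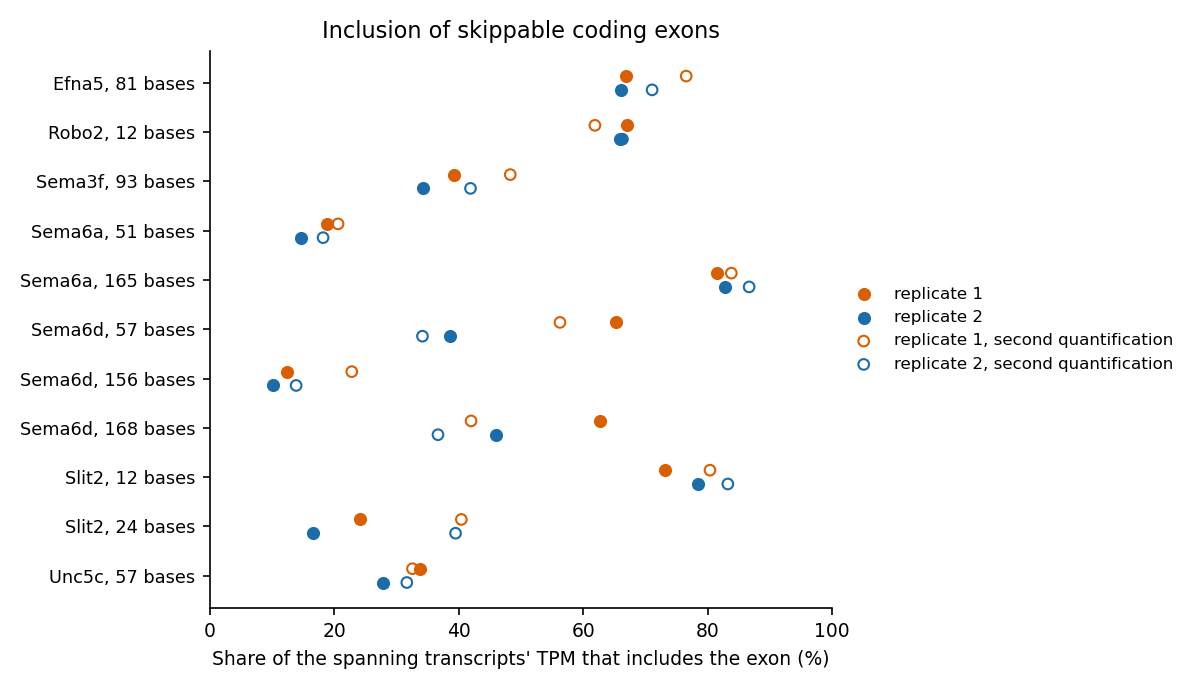
Share of the spanning protein-coding transcripts' TPM that includes each of 11 skippable coding exons, in replicate 1 (orange, upper) and replicate 2 (blue, lower), with filled points for the first quantification and open points for the second. The 57-base exon of Sema6d has the widest gap between the animals, with 65.3% in replicate 1 and 38.5% in replicate 2 in the first quantification.

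Promoters of the members were read from RefSeq sequence on GRCm38.p6, which held 57 of the 67. For each, the annotated start nearest that of the protein-coding transcript of highest TPM was used. The start used lay 43008 bases from that transcript's start in Sema6d, 37064 in Sema4d, 4014 in Epha10, 2792 in Sema4g and 2525 in Sema3a. In these genes the sequence read is thus not that around the transcript's own start. In the 300 bases around the annotated start, the members had a median of 23 CpG dinucleotides, against 14 over 20150 promoters of protein-coding genes. Those 20150 were not chosen by transcript level, and they include genes that were not detected. The median was 23 over the 49 members at 1 TPM or more in both animals and 14.5 over the 8 others. The range among members was wide, from 2 to 56. Robo4, with a mean of 11.7 TPM, had 2, as did Sema4d and Sema3a, and Epha8, with a mean of 0.18 TPM, had 56. For Robo4 and Epha8, the 250 bases upstream of the annotated start are printed with each CpG in capitals.
Robo4, chr9:37401722-37401971, plus strand: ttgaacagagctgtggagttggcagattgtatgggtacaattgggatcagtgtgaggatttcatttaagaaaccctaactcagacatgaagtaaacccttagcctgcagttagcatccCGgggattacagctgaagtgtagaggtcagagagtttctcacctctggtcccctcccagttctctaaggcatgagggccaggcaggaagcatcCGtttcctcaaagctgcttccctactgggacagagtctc
Epha8, chr4:136956817-136957066, minus strand: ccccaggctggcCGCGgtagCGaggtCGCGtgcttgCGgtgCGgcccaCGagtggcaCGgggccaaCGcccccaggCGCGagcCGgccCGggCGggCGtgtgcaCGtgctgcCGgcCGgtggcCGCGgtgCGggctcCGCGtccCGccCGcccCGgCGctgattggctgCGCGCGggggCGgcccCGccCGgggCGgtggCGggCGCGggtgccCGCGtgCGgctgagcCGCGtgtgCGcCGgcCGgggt
The upstream stretch held 2 CpG in Robo4 and 46 in Epha8. The letters AAGGTCA, the type of site that steroidogenic factor SF-1 binds, were on either strand of 3 member promoters, those of Sema5a, Sema4b and Ntn5, which is 5.26% of the 57, against 3.97% of the promoters of protein-coding genes. The letters TATAAA were on either strand of 2, those of Slit2 and Efnb2, which is 3.51%, against 12.1%.

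Between the animals, 58 members had a mean count of at least 100, and none of these differed 2-fold after scaling by the trimmed mean of M values (TMM), while 3.21% of the 13734 genes past the same filter did, 1.71% higher in replicate 1 and 1.5% higher in replicate 2. At 1.5-fold, 5 of the 58 members differed, all higher in replicate 1, against 5.53% of genes in either direction, 3.07% higher in replicate 1 and 2.46% higher in replicate 2. The median log2 ratio of replicate 1 over replicate 2 was 0.016 over the members and -0.021 over all genes, and the median absolute ratio was 0.143 over the members and 0.109 over all genes. By scaling on TMM, 32 of the 58 members were on the side of replicate 1, against 44.7% of genes. That number was 43 with library totals and 45 with spike-in counts, which moved the share of all genes to 56.4% and 65.7% too. For 22 members the 95% counting interval lay above 0, against 17.8% of genes, and for 8 it lay below 0, against 23.4% of genes. Intervals cover counting error only and not the difference between any 2 animals.

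The 5 members were 3 receptors and 2 semaphorins, of 4 families. Robo2 (ENSMUSG00000052516.19, chr16:73891839-74411825, minus strand) had 697 counts in replicate 1 and 384 in replicate 2, a log2 ratio of 0.86 with a 95% counting interval of 0.68 to 1.05. Epha7 had 544 counts in replicate 1 and 331 in replicate 2, a ratio of 0.72. Sema3a had 367 counts in replicate 1 and 230 in replicate 2, a ratio of 0.68. Its neighbours on chromosome 5, Sema3d and Sema3e, had ratios of 0.24 and 0.19. Sema3e was below the count limit, with 40 counts in replicate 1, 35 in replicate 2 and a counting interval of -0.49 to 0.89. Epha4 had 512 counts in replicate 1 and 330 in replicate 2, a ratio of 0.64, and Sema4a had 314 counts in replicate 1 and 209 in replicate 2, a ratio of 0.59, only just past the limit. In the second quantification Robo2, Epha7 and Sema3a stayed past 1.5-fold, while Epha4 and Sema4a fell just short at 0.58 and 0.57. With the deposited TPM, Ephb3 was past it as well, at 0.69. Robo1, which lies 846 kb from Robo2 on the opposite strand, had a ratio of 0.06. All 6 class 3 semaphorins with enough counts were on the side of replicate 1, against the 44.7% of genes given above, and in 4 of them the counting interval lay above 0. Of the 70 co-receptors and partners, 63 had enough counts and none differed 2-fold. Past 1.5-fold there was 1, Srgap1, which encodes a GTPase-activating protein that binds Robo receptors, with 4.82 TPM in replicate 1 and 2.90 in replicate 2 and a log2 ratio of 0.78. Kidney markers were past 2-fold in replicate 1 for 7 of 7 with enough counts and pancreas markers for 5 of 5, while the Schwann cell markers summed to 38.6 TPM in replicate 1 and 29.7 in replicate 2, and the part of any of these tissues in the 5 ratios was not tested.

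**Figure D5:**
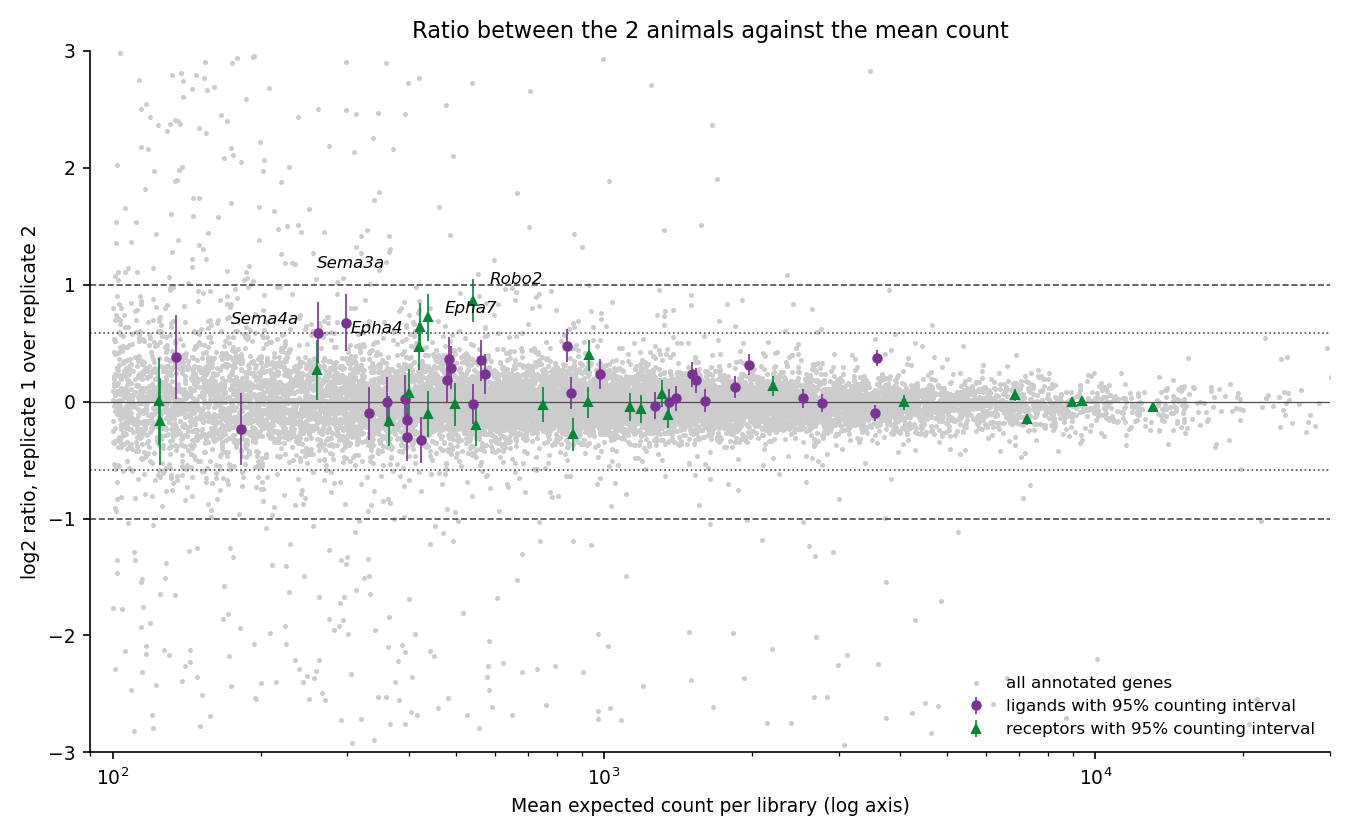
The log2 ratio of replicate 1 over replicate 2 against the mean expected count (log axis) for 13734 genes (grey), with ligands (purple circles) and receptors (green triangles) and their 95% counting intervals; dashed lines mark 2-fold, dotted lines 1.5-fold, and 148 genes lie outside the axes. All 58 members with a mean count of at least 100 lie within the dashed lines, and the 5 named ones lie on or above the upper dotted line.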

How the data were processed

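The members and gene lists were chosen with earlier results of these data known. Per the labels, libraries were directional and depleted of ribosomal RNA. Per the file headers, the authors deposited an expected count, a TPM and a posterior mean TPM per gene and per transcript, made from alignments to the transcriptome, and a second transcript table with an estimated count and TPM made from the read files, called the second quantification and summed here to genes. The assembly is mm10 and the annotation GENCODE M21; not given in the sources used here are the aligner and the quantifiers. The second quantification gave TPM values that were a median of 1.82 times the first over 13034 detected protein-coding genes and 1.82 times over the members, so levels are compared within 1 table only.

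Genes were matched by identifier to GENCODE M21. Ratios of replicate 1 over replicate 2 used expected counts scaled by TMM (edgeR 4.0.16), a prior of 0.5 counts and a minimum mean count of 100, with exact Clopper-Pearson 95% intervals for the split of counts, which cover counting error only. With 1 library per replicate no test was run, and a rule of size was used and checked on simulated data. Size factors of DESeq2 1.42.0 were an alternative. A count of 0 allows up to 3 counts. Named were the 4 highest members of each family, those nearest 1 TPM, both genes of each pair and the members with a divided transcript level; of the list of partners, the 8 highest. Genes named beyond this rule, the 1.5-fold group, the skippable exons and the promoters were chosen after their values were seen. Expected counts of Plxnc1 and Sema3a were not whole (tolerance 0.01); those of the other 65 members were. Other alternatives are given with the limits.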

Additional observations from a re-analysis of the deposited data

How the results depend on the processing

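The number of detected members was 57 and ranged from 52 at 2 TPM to 59 at 0.5 TPM or in the second quantification, and from 57 to 58 with 1 animal left out. With replicate 1 or replicate 2 left out, the summed TPM ranged from 38.2 to 45.6 for class 3 semaphorins, 106 to 122 for membrane-bound semaphorins, 267 to 277 for plexins, 29.4 to 32.2 for ephrin-A, 53.3 to 54.1 for ephrin-B, 22.7 to 25.6 for EphA, 54.0 to 55.9 for EphB, 36.3 to 40.4 for Slits, 48.5 to 54.8 for Robos, 14.9 to 16.6 for netrins, 15.7 to 16.6 for Unc5 and Dcc, 278 to 311 for ligands, 408 to 430 for receptors and 686 to 741 for all members. The second quantification, on its own scale, gave 75.9, 229, 421, 51.3, 118, 47.9, 100.2, 68.0, 100.4, 35.7, 28.3, 578, 697 and 1275 TPM in the same order. Protein-coding transcripts alone, an alternative chosen after seeing the data, gave 33.4 for class 3 semaphorins, 85.1 for membrane-bound semaphorins, 183 for plexins, 51.2 for ephrin-B, 18.7 for EphA, 53.5 for EphB, 24.6 for Slits, 40.6 for Robos, 14.4 for Unc5 and Dcc, 239.9 for ligands, 309.8 for receptors and 549.7 for all members. Posterior mean TPM moved ephrin-B to 53.1 and Unc5 and Dcc to 16.8. Members differing 2-fold numbered 0 under every scaling, in the second quantification and at a mean count of 20, but 1 with no filter on low counts (Ntn5, with 1 and 5 counts) and 5 at 1.5-fold. By deposited TPM the 0 rests on the 0.01 TPM added to each level. Without it Robo2, at 6.76 TPM in replicate 1 and 3.38 in replicate 2, would reach 2-fold. The median log2 ratio of the members ranged from 0.001 to 0.102 over the alternatives. Members with a divided transcript level numbered 11, and 25 in the second quantification, where 50 members reach 5 TPM, 18 at 2 TPM, and 11 to 16 with 1 animal left out. No pair of ligand and receptor changed its order in the second quantification, with a pseudocount of 0.1 TPM or with 1 animal left out. With protein-coding transcripts alone, computed for the 15 pairs of 2 members, Slit2 over Robo4 turned to -0.55, and Slit2 over Robo2 turned in replicate 1 only. In 10 of the 15, Slit2 over Robo2 among them, the mean moved beyond the spread between animals but kept its sign. Leaving out an animal gives no ratio between animals. No paired analysis was possible because there is only 1 group. Counts under 100 limit 9 members. The 2 libraries, whose animals are not settled, give no error for the spread between animals beyond these libraries.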
